A study of Homo sapiens with 4 samples.

Results

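The genes of cholesterol and fatty acid synthesis were followed in ACHN, a cell line established from a human renal cell carcinoma, after silencing of *PRR11*, a proline-rich protein linked to the cell cycle. The set held 33 genes of the 36359 in the count table and was put together by function and name. It comprised 7 enzymes of the mevalonate pathway, 11 enzymes that turn its products into cholesterol, 5 genes of the SREBP system, 8 lipogenic enzymes and 2 genes used as readouts of LXR. RNA-seq was performed on 2 libraries of cells given a negative control siRNA (siNC) and on 2 of cells given siRNA against *PRR11* (siPRR11). Both groups were transfected with Lipofectamine and grown in MEM with fetal bovine serum, and they share the genotype of the line. The comparison asks which of these genes respond to the loss of *PRR11* mRNA. The labels do not say which siPRR11 duplex each library received, nor whether the 2 libraries of a group came from separate cultures, so the p-values measure the spread between these libraries, which may be technical.

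Cells build cholesterol from acetyl-CoA through mevalonate, farnesyl diphosphate, squalene and lanosterol. When membrane sterol is low, SCAP carries the SREBP transcription factors (encoded by *SREBF1* and *SREBF2*) from the endoplasmic reticulum to the Golgi, where they are cleaved and then switch on these enzymes. INSIG proteins hold SCAP back when sterol is plentiful, and *INSIG1* is itself an SREBP target, so its mRNA is widely read as a gauge of SREBP activity. SREBP-2 is known mainly for the sterol genes and SREBP-1 mainly for fatty acid synthesis, while LXR, a receptor for oxidized sterols, induces genes of sterol export. Renal cell carcinomas are known for altered lipid handling.

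The libraries held 59003839 to 92612749 counted reads. Counts were lowest for *TM7SF2* (292 to 445 a library) and *MYLIP* (317 to 481 a library), where counting error weighs most. All 33 genes passed the filter on low counts. Renal lineage markers were present, with PAX8, PAX2 and LHX1 at means of 43.6, 3.39 and 2.56 RPKM in siNC. In siPRR11 they were at 38.7, 3.27 and 1.80 RPKM. With KRT8, KRT18, KRT19 and VIM, which are not particular to the kidney, the 7 summed to 624 to 734 RPKM in siNC. In siPRR11 the sum was 618 to 638 RPKM. Of these 7 markers 1 was called higher and 2 lower. All 4 of 4 endothelial markers lay under 0.1 RPKM in every library. Of 5 immune markers 4 lay under that level, with CD68 the exception, and of 5 hepatocyte markers 2 did. Of 4 fibroblast markers 3 lay under it, but COL1A1 was called higher in siPRR11 cells and lifted that list from 5.00 and 4.34 to 10.0 and 7.90 RPKM. The part of these differences in the results below was not tested. For *PRR11* itself the siNC libraries held 41.3 and 40.4 CPM (counts scaled to library size after TMM normalization). The siPRR11 libraries held 15.3 and 14.0 CPM, so that 35.9% of the control level remained. In bulk RNA, fewer cells with a transcript and less of it per cell cannot be told apart.

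Levels can be compared between genes only per length, as RPKM (reads scaled to exonic length and library size). In siNC cells 2 lipogenic enzymes led the set. *ACLY*, which makes cytosolic acetyl-CoA from citrate, was at 101.8 ± 4.98 RPKM (SD, n = 2), and *SCD*, the stearoyl-CoA desaturase, at 69.8 ± 6.49 RPKM (SD, n = 2). *FDPS*, the farnesyl diphosphate synthase, followed at 47.1 ± 0.231 RPKM (SD, n = 2), and *FASN*, the fatty acid synthase, at 35.4 ± 3.74 RPKM (SD, n = 2). The lowest were *MYLIP*, a ubiquitin ligase induced by LXR, at 1.69 ± 0.122 RPKM and *TM7SF2*, a sterol reductase, at 1.30 ± 0.22 RPKM (SD, n = 2 each). Within the sterol branch *CYP51A1*, the lanosterol demethylase, was highest at 27.4 ± 4.65 RPKM (SD, n = 2). This value is uncertain, since exons of *LRRD1* on the same strand cover 78.8% of its exonic bases. The counts of *LRRD1* were 95.7% to 97.3% of those of *CYP51A1* in the 4 libraries.

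**Figure D1:**
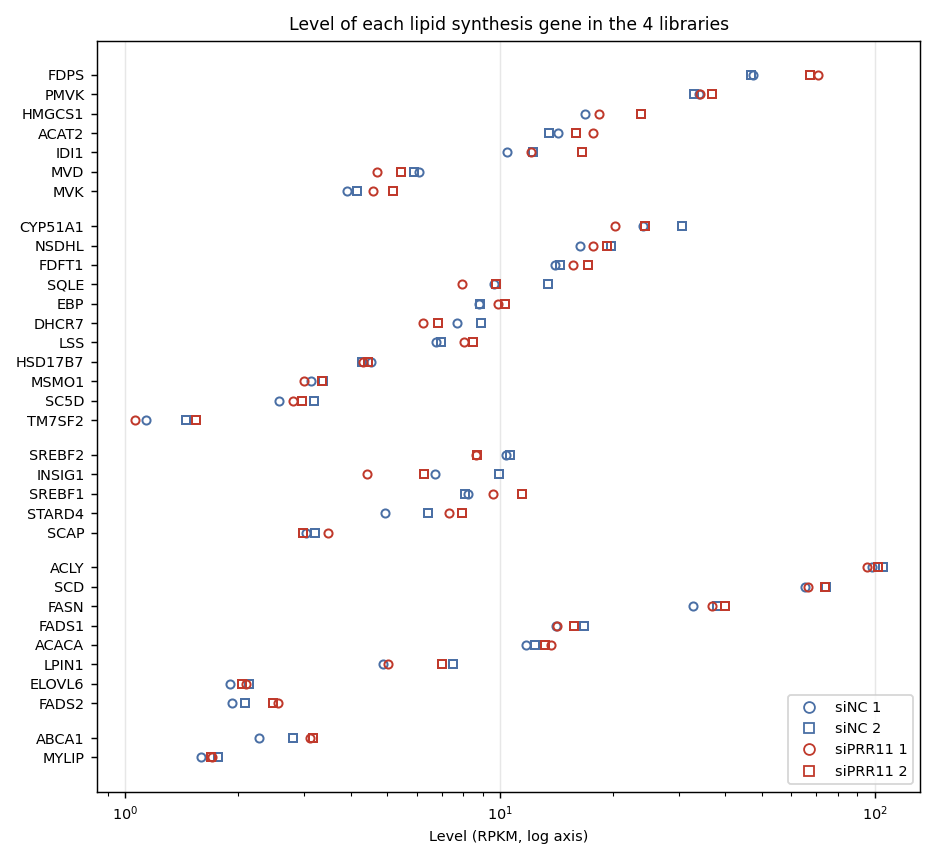
RPKM (log axis) of the 33 genes in each library, ordered within each functional group by the siNC mean. ACLY, SCD and FDPS lie furthest right and TM7SF2 furthest left, and the 4 points of most genes lie close together compared with the distances between genes.

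After silencing of *PRR11*, 6 of these genes passed the test, in both directions. At an adjusted p under 0.05 (edgeR quasi-likelihood, Benjamini-Hochberg over all 21630 genes tested), 3 genes rose (*FDPS*, *SREBF1* and *STARD4*) and 3 fell (*INSIG1*, *DHCR7* and *SREBF2*). These 6 of 33 genes are 18.2% of the set, against 16.7% of all genes tested, with 7.61% higher and 9.14% lower. Among the 12210 genes at least as abundant as the lowest member, 24.6% were called. The number of calls is thus near the background and says nothing particular of the set. The median log2 fold change was -0.01 over the 33 genes and 0.00 over all genes tested. The median absolute log2 fold change was 0.15 and 0.22, respectively. The groups did not overlap for 17 of the 33 genes (51.5%), against 58.4% of all genes. When p-values were left unadjusted, at the same threshold, 8 of the genes were higher and 6 lower (42.4% of the set, against 30.3% of all genes). This share was not set against genes of similar abundance, among which adjusted calls were more frequent (24.6%).

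**Figure D2:**
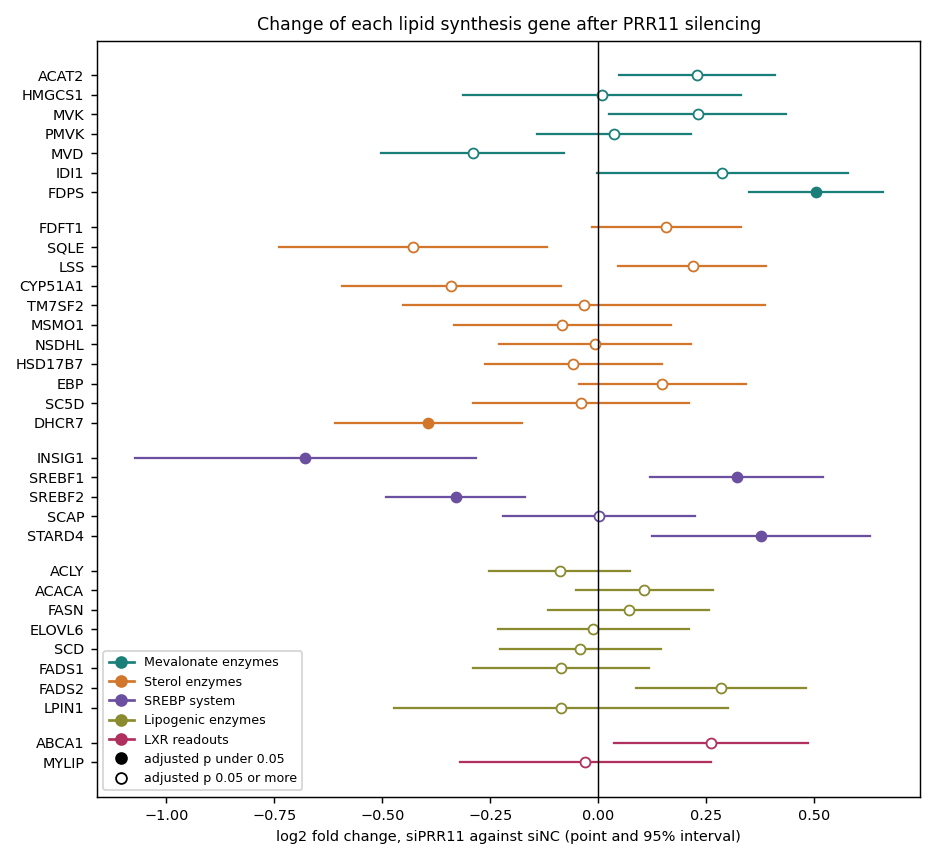
log2 fold change of each gene in siPRR11 against siNC, with its 95% interval from the quasi-likelihood fit, grouped by function, filled where the adjusted p is under 0.05. FDPS stands at 0.51 and INSIG1 at -0.68, and all 8 lipogenic enzymes have open points.

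Of all genes tested 16.7% passed the threshold, and of those at least as abundant as the lowest member 24.6%. In the SREBP system 4 of 5 genes passed (2 higher and 2 lower). The group was chosen with earlier results known and is too small for its share to be read as particular to it, and without siPRR11 library 2 the count was 1. *INSIG1* (chr7:155297776-155310235, GRCh38), the sterol-regulated anchor of SCAP, was at 24.9 and 37.0 CPM in siNC and at 15.9 and 22.7 CPM in siPRR11. The groups did not overlap, although the libraries of each group were far apart. It fell to a ratio of 0.62 to control, by 0.68 on the log2 scale (standard error, SE, 0.181, edgeR adjusted p = 0.0235), the largest change of the set. With DESeq2 the log2 fold change was the same, -0.68, but the adjusted p was 0.211. With replicate number added to edgeR's model it was also -0.68, although the labels do not establish pairing. In both groups library 2 lay above library 1, by 0.57 in siNC and 0.51 in siPRR11 on the log2 scale. Leaving out 1 library of a group therefore shifts the estimate. Without siNC library 2 the log2 fold change was -0.37 (adjusted p = 0.0838 from edgeR's test), without siPRR11 library 1 it was -0.45 (adjusted p = 0.0293), and without siNC library 1 or siPRR11 library 2 it was -0.94 or -0.96.

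*SREBF2* (chr22:41833079-41907308), which encodes SREBP-2, was at 79.9 and 81.9 CPM in siNC and at 64.1 and 64.6 CPM in siPRR11. The libraries of each group nearly coincided and the groups were clearly apart. It fell by 0.33 on the log2 scale to 79.6% of control (SE 0.0738, edgeR adjusted p = 0.01). Without siPRR11 library 1 or 2 the adjusted p was 0.0883 or 0.0714, at log2 fold changes of -0.33 and -0.34. Exons of *RP5-821D11.7* on the other strand cover 3.7% of the exonic bases of *SREBF2*. The counts of *RP5-821D11.7* were 14.0% to 15.8% of those of *SREBF2* and changed alike (log2 fold change -0.33, edgeR adjusted p = 0.0619). The values of *SREBF2* are uncertain to that extent. *SREBF1* (chr17:17810399-17837002), which encodes the SREBP-1 isoforms that these gene counts do not separate, was at 67.3 and 66.1 CPM in siNC and at 75.8 and 90.8 CPM in siPRR11. It rose by 0.32 on the log2 scale (SE 0.0914, edgeR adjusted p = 0.0322). Most of this rise lay in siPRR11 library 2, and without it the log2 fold change was 0.18 (adjusted p = 0.421 from edgeR's test).

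The genes of the 2 SREBP precursors thus changed in opposite directions, and their order per length turned around. The ratio of *SREBF1* to *SREBF2* in RPKM, which does not depend on the scaling of a library, was 0.792 and 0.759 in the siNC libraries but 1.11 and 1.32 after silencing. The difference was 0.65 on the log2 scale and restates the 2 changes above. Since *SREBF1* was higher and *SREBF2* lower in both siPRR11 libraries, the groups could not overlap. A 2-sided exact permutation test thus had to give p = 0.333, the smallest value that 2 against 2 libraries allow, and decides nothing.

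*STARD4* (chr5:111496033-111512590), a cytosolic carrier of cholesterol and a known SREBP target, was at 28.6 and 37.3 CPM in siNC and at 41.0 and 44.5 CPM in siPRR11. It rose by 0.38 on the log2 scale (SE 0.115, edgeR adjusted p = 0.0435), with a narrow gap between the groups. Without siNC library 1 its log2 fold change was 0.19 (edgeR adjusted p = 0.175), without siPRR11 library 2 it was 0.32 (adjusted p = 0.131), and without siNC library 2 it was 0.58. *SCAP*, the escort of the SREBPs, was at 19.4 and 20.6 CPM in siNC and at 21.5 and 18.6 CPM in siPRR11. Its groups overlapped, and the log2 fold change of 0.00 had a 95% interval from -0.22 to 0.22. None of the 5 further genes of SREBP processing examined passed the threshold (*INSIG2*, the site proteases *MBTPS1* and *MBTPS2*, the ligase *RNF139*, and *SPRING1*), at log2 fold changes between -0.21 and 0.16. At an unadjusted p-value under 0.05, 1 of these 5 was lower. Of all genes tested 16.7% passed the adjusted threshold and 30.3% the unadjusted one.

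Among the 7 mevalonate enzymes 1 was called (14.3%, against 16.7% of all genes tested). *FDPS* (chr1:155308748-155320666), which joins isoprene units into farnesyl diphosphate, was at 179 and 178 CPM in siNC and at 258 and 247 CPM in siPRR11. Each group was tight and the siPRR11 libraries lay well above. It rose 1.42-fold, by 0.51 on the log2 scale (SE 0.0709, edgeR adjusted p = 0.000696), and it was the single gene of the 33 called in every setting tried. Exons of *RUSC1-AS1* on the other strand cover 18.6% of the exonic bases of *FDPS*, and this gene was also higher (log2 fold change 0.44, adjusted p = 0.00211 from edgeR's test). After all reads counted on *RUSC1-AS1* were taken off, a setting chosen after seeing the data, the log2 fold change of *FDPS* was 0.54 (adjusted p = 0.000544).

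Of the other 6 mevalonate enzymes 5 had positive log2 fold changes, *MVD* had a negative one, and the median over all 7 was 0.23. With unadjusted p-values under 0.05, 3 of the 7 were higher and 1 lower (57.1%, against 30.3% of all genes tested). The group is too small for this share to be read as particular to it. *HMGCS1*, the HMG-CoA synthase at the head of the pathway, was at 80.7 and 114 CPM in siNC and at 85.2 and 110 CPM in siPRR11. The groups overlapped fully, the log2 fold change was 0.01 and its 95% interval ran from -0.31 to 0.33. *MVD*, the mevalonate diphosphate decarboxylase, was at 29.2 and 28.4 CPM in siNC and at 21.8 and 25.4 CPM in siPRR11, a log2 fold change of -0.29 with an adjusted p of 0.0623 from edgeR's test. *ACAT2*, the thiolase that supplies acetoacetyl-CoA, came out at 0.23 on the log2 scale (adjusted p = 0.0803), but exons of *SOD2* and *TCP1* on the other strand cover 52.3% of its exonic bases. *MVK* and *PMVK*, the kinases of mevalonate and its phosphate, had log2 fold changes of 0.23 and 0.04 (adjusted p = 0.121 and 0.808). *IDI1*, the isopentenyl diphosphate isomerase, came out at 0.29 (adjusted p = 0.167) with overlapping groups. Exons of *IDI2-AS1* on the other strand cover 17.9% of the exonic bases of *IDI1*. Summed over the 7 enzymes, the level was 132.8 and 139.7 RPKM in siNC and 162.6 and 171.2 RPKM in siPRR11. Without *FDPS* the sums were 85.6 and 92.7 against 91.8 and 103.8 RPKM, and the groups overlapped.

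Of the 11 enzymes of the sterol branch 1 was called (9.09%, against 16.7% of all genes tested). *DHCR7* (chr11:71428193-71452868), the dehydrocholesterol reductase that completes cholesterol, was at 32.5 and 37.8 CPM in siNC and at 25.4 and 28.1 CPM in siPRR11. It fell by 0.39 on the log2 scale to 76.2% of control (SE 0.0988, edgeR adjusted p = 0.0183). Without siNC library 2 or siPRR11 library 1 the adjusted p was 0.06 or 0.144, at -0.28 and -0.32. *SQLE*, the squalene epoxidase that limits the rate of this branch, was at 42.2 and 58.9 CPM in siNC and at 33.5 and 41.6 CPM in siPRR11. The highest siPRR11 library was just below the lowest siNC library, and the log2 fold change of -0.43 had an adjusted p of 0.0605 from edgeR's test. In both groups library 2 lay above library 1 for *SQLE* and *CYP51A1*, so leaving out 1 library shifts the estimate. *CYP51A1* was at 99.7 and 127 CPM in siNC and at 81.2 and 97.8 CPM in siPRR11, a log2 difference of -0.34 (edgeR adjusted p = 0.0663). Without siNC library 1 these values were -0.65 for *SQLE* (edgeR adjusted p = 0.000202) and -0.51 for *CYP51A1* (adjusted p = 0.000798), and without siNC library 2 they were -0.17 (adjusted p = 0.331) and -0.16 (adjusted p = 0.31). Other enzymes of the branch leaned the other way, with log2 fold changes of 0.22 for *LSS* (lanosterol synthase, adjusted p = 0.0795), 0.16 for *FDFT1* (squalene synthase, adjusted p = 0.202) and 0.15 for *EBP* (a sterol isomerase, adjusted p = 0.29). The log2 fold changes of *MSMO1*, *NSDHL*, *HSD17B7*, *SC5D* and *TM7SF2* lay between -0.08 and -0.01, and their groups overlapped. The median log2 fold change of the branch was -0.04.

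**Figure D3:**
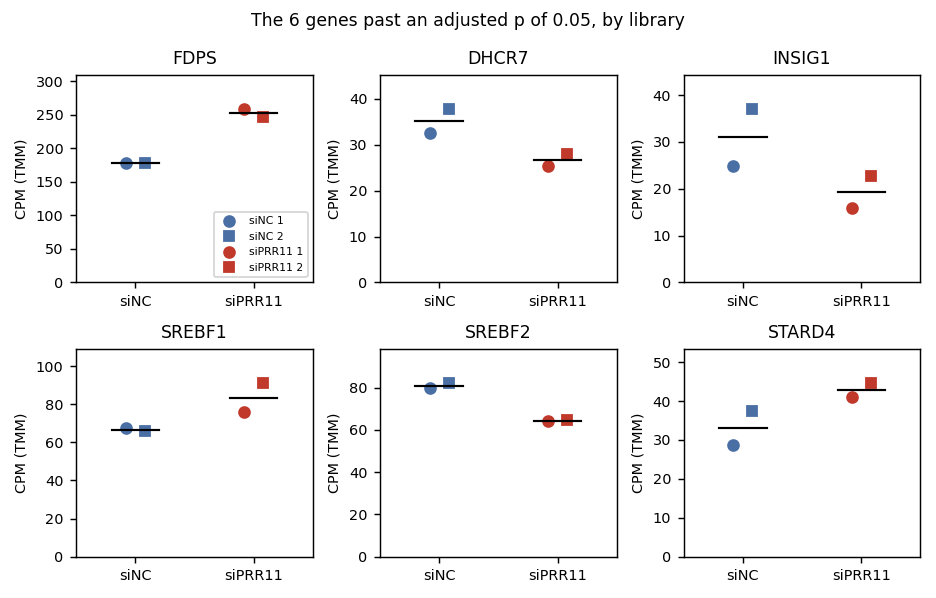
CPM by library for the 6 genes past an adjusted p of 0.05, with the group mean as a bar. In every panel the siNC and siPRR11 points do not overlap, the groups of FDPS and SREBF2 are tight, and those of INSIG1 are spread widely around means of 30.9 and 19.3 CPM.

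None of the 8 lipogenic enzymes was called, against 16.7% of all genes tested. The group is too small for this to be read as particular to it. *ACLY* was at 521 and 559 CPM in siNC and at 489 and 526 CPM in siPRR11, with a 95% interval of its log2 fold change from -0.25 to 0.07. *FASN* was at 312 and 363 CPM in siNC and at 340 and 369 CPM in siPRR11, with an interval from -0.12 to 0.26. *SCD* was at 355 and 406 CPM in siNC and at 350 and 390 CPM in siPRR11, with an interval from -0.23 to 0.15. The groups of *FASN* and *SCD* overlapped, as did those of *ACLY*, and the data do not exclude changes within these intervals. The log2 fold changes were 0.11 for *ACACA*, the acetyl-CoA carboxylase (adjusted p = 0.356), -0.01 for *ELOVL6*, a fatty acid elongase (adjusted p = 0.959), and -0.09 for *LPIN1*, a phosphatidate phosphatase (adjusted p = 0.793). The neighbouring desaturase genes *FADS1* and *FADS2* on chromosome 11 had log2 fold changes of -0.09 (adjusted p = 0.586) and 0.28 (adjusted p = 0.0513). *FADS2* was at 21.6 and 23.4 CPM in siNC and at 27.8 and 27.0 CPM in siPRR11, with no overlap. Exons of the 2 genes on opposite strands share bases, 4.79% of those of *FADS1*. At an unadjusted p-value under 0.05, *FADS2* was the 1 of the 8 that was higher (12.5%, against 30.3% of all genes tested). DESeq2 called 1.

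Of the LXR readouts, *ABCA1*, the cholesterol exporter, was at 26.3 and 32.4 CPM in siNC and at 34.7 and 35.5 CPM in siPRR11 (log2 fold change 0.26, adjusted p = 0.108 from edgeR's test). *MYLIP* was at 4.93 and 5.47 CPM in siNC and at 5.10 and 5.06 CPM in siPRR11, and the siPRR11 libraries lay between the siNC libraries. Neither was called by edgeR's quasi-likelihood test or by DESeq2, and at an unadjusted p-value under 0.05 *ABCA1* was higher. Of all genes tested 16.7% passed edgeR's adjusted threshold and 30.3% the unadjusted one. The group is too small for its share to be read as particular to it.

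Promoter sequences are shown for the called genes that held a match to the letters searched, since these genes changed in both directions and are known SREBP targets. Windows from 250 bases before to 50 bases after the start were read from RefSeq (GRCh38.p14) for 29 of the 33 genes. The windows of *ACAT2*, *FDFT1*, *SQLE* and *FASN* were not read. Each gene was read at a single start, so any other start of a gene was not searched. Both strands were searched for CACCCCAC and TCACNCCAC, forms of the core of a sterol regulatory element that overlap each other, and for CCAAT, the box bound by NF-Y, a known partner of SREBPs. CCAAT was found in 18 of the 29 windows (62.1%), against 35.7% of 27305 promoters and 36.0% of those of 11704 genes tested. CACCCCAC was found in *SREBF2* and *ABCA1* (6.9%, against 2.72% of all promoters), and TCACNCCAC in *SREBF2* (3.45%, against 1.15%). CACGTG, an E-box, was found in 5 windows (17.2%, against 7.43% of all promoters and 10.0% of those of tested genes). GGGCGG, a GC box, was found in 27 (93.1%, against 44.6% and 67.3%). Capitals mark matches to CACCCCAC, TCACNCCAC or CCAAT on either strand. The windows lie at chr22:41832855-41833154 on the plus strand (SREBF2), chr7:155297628-155297927 on the plus strand (INSIG1), chr11:71448344-71448643 on the minus strand (DHCR7), chr1:155308616-155308915 on the plus strand (FDPS) and chr5:111512486-111512785 on the minus strand (STARD4).
SREBF2: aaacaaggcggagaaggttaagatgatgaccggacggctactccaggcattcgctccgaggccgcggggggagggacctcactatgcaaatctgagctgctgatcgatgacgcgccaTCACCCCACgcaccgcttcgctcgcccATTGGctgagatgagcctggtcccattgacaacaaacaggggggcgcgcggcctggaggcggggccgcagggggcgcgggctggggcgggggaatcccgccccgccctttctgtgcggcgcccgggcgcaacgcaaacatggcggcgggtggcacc
INSIG1: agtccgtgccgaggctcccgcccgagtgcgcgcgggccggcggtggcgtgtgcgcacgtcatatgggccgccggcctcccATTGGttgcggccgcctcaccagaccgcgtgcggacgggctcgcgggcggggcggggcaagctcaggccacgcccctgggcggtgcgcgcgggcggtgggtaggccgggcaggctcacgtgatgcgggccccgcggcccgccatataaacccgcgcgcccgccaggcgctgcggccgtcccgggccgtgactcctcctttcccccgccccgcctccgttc
DHCR7: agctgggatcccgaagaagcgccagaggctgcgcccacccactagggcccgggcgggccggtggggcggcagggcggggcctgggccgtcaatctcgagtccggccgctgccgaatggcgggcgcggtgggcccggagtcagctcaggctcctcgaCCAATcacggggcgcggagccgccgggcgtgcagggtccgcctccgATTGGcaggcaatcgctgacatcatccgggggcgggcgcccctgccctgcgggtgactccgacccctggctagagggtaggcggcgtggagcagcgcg
FDPS: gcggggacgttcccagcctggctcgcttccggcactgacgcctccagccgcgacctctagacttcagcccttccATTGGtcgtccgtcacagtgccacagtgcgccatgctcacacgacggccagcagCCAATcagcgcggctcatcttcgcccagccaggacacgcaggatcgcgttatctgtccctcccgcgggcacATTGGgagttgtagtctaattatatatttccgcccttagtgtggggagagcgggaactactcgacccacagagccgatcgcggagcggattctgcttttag
STARD4: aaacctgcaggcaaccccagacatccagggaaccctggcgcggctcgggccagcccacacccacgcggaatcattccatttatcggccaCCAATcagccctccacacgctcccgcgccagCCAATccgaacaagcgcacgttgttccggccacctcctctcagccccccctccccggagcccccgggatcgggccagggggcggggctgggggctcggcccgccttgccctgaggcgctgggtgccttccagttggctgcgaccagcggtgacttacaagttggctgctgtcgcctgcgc

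In *SREBF2* the sterol element began at -133 from the start and a CCAAT box on the other strand at -106. *INSIG1* held 1 CCAAT box, *DHCR7* and *STARD4* 2 each and *FDPS* 3. The window read for *SREBF1*, the other called gene, held none of the 3 strings, and any other start of this gene was not searched. Genes that rose and genes that fell thus both carried CCAAT, and these letters did not separate them. A match is a description of the sequence, not of binding.

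The libraries of a group differed in these genes in a common way. In 22 of the 33 genes (66.7%) library 2 lay above library 1 both in siNC and in siPRR11, against 30.0% of all genes tested and 33.2% of the genes at least as abundant as the lowest member, and in 2 genes it lay below in both. Among the sterol enzymes this held for 10 of 11, with *HSD17B7* the exception, and among the lipogenic enzymes for 5 of 8. The median log2 ratio of library 2 to library 1 was 0.15 in siNC and 0.12 in siPRR11, and 0.00 in both groups over all genes tested. For *LPIN1*, siNC library 2 was at 153.6% of siNC library 1 and siPRR11 library 2 at 139.5% of siPRR11 library 1. For *INSIG1* these values were 148.5% and 142.4%, and for *HMGCS1* 141.3% and 129.7%. What set the libraries of a group apart in these genes was not tested. *FDPS* and *SREBF2* hardly differed between libraries of a group, at 99.4% and 95.5% for *FDPS* and 102.5% and 100.7% for *SREBF2*.

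In 14 of the 33 genes (42.4%) the mean difference between libraries 1 and 2 was larger than that between siPRR11 and siNC, against 34.8% of all genes tested and 28.8% of the genes at least as abundant as the lowest member. This held for 6 of the 8 lipogenic enzymes. The labels give libraries 1 and 2 as replicates and name no batch, date or culture for them.

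**Figure D4:**
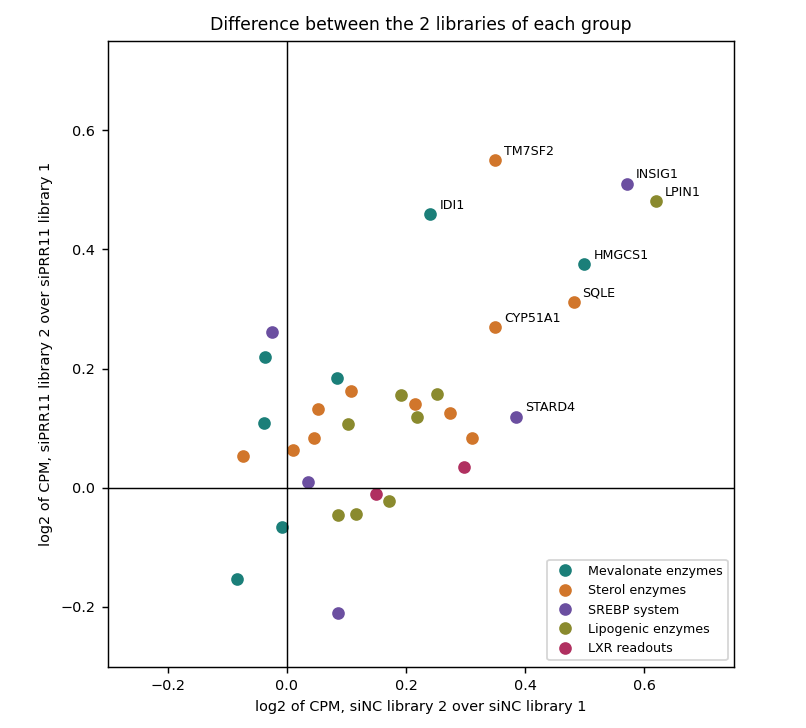
For each gene, the log2 ratio of CPM in siNC library 2 over siNC library 1 (x axis) against that in siPRR11 library 2 over siPRR11 library 1 (y axis), coloured by function. Of the 33 genes 22 lie in the upper right quadrant, with LPIN1, INSIG1, HMGCS1, SQLE and TM7SF2 furthest out, and 2 in the lower left.

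Beyond the 33 genes, 109 genes of neighbouring lipid pathways were in the table and 105 could be tested. Of these 8 rose and 13 fell (20%, against 16.7% of all genes tested), and their median log2 fold change was 0.00. Among 12 genes of isoprenoid use 2 rose and 1 fell, with *COQ2*, a prenyltransferase of coenzyme Q synthesis, at 13.3 and 12.5 CPM in siNC and 17.3 and 19.6 CPM in siPRR11 (log2 fold change 0.52). Of 26 further genes of fatty acid supply, elongation and activation tested, 2 rose and 5 fell (26.9%). Of all genes tested 16.7% were called, and 24.6% of those at least as abundant as the lowest of the 33. *SLC25A1*, the mitochondrial citrate exporter that feeds ACLY, was at 37.4 and 35.8 CPM in siNC and at 46.8 and 56.9 CPM in siPRR11 (log2 fold change 0.50). *ACSL5*, an acyl-CoA synthetase, rose by 0.64, while its relative *ACSL6* and the elongase gene *ELOVL4* fell by 1.13 and 0.90 from levels under 2 CPM. The call for *ACSL5* (edgeR adjusted p = 0.0498) was lost without siNC library 1 (0.56, adjusted p = 0.121) or siPRR11 library 1 (0.42, adjusted p = 0.416). Without siPRR11 library 2 the calls for *ELOVL4* (adjusted p = 0.0699), *SLC25A1* (adjusted p = 0.0702) and *COQ2* (adjusted p = 0.0588) were lost, at log2 fold changes of -0.84, 0.35 and 0.42.

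Among 25 genes of fatty acid oxidation tested, 2 rose and 4 fell (24.0%). Of all genes tested 16.7% were called, and 24.6% of those at least as abundant as the lowest of the 33. In the list, 14 of the 25 log2 fold changes were positive and 11 negative. *CPT1A*, which admits long acyl chains to mitochondria, was at 23.3 and 24.7 CPM in siNC and at 16.1 and 14.7 CPM in siPRR11. It fell by 0.64 on the log2 scale (SE 0.096, edgeR adjusted p = 0.0011). *SLC25A20*, the carnitine carrier of the same shuttle, and *ACADSB*, an acyl-CoA dehydrogenase, fell by 0.57 and 0.55. The call for *SLC25A20* was lost without siNC library 1 (-0.42, edgeR adjusted p = 0.118) or siPRR11 library 2 (-0.43, adjusted p = 0.195). The median log2 fold change of this list was 0.12, on the side opposite to these genes. Of 21 genes of triglycerides and lipid droplets tested, 1 rose and 2 fell (14.3%, against 16.7% of all genes tested). The one that rose was *MGLL*, the monoglyceride lipase, by 0.59 (adjusted p = 0.000752 from edgeR's test), from 25.4 and 25.3 CPM to 39.1 and 37.4 CPM. Of 16 genes of sterol uptake, transport and LXR signaling, 1 rose and 1 fell (12.5%, against 16.7% of all genes tested). The latter was *SMPDL3A*, a known LXR target, which fell by 0.73 from about 2 CPM. Its call was lost without siNC library 2, siPRR11 library 1 or siPRR11 library 2 (edgeR adjusted p = 0.0954, 0.156 and 0.0738).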

How the data were processed

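RNA-seq was performed on ACHN cells treated with siNC or siPRR11 (2 libraries each). Per the paper's methods and the submitters' processing notes, the stranded libraries were sequenced on a DNBSEQ-T7, trimmed (Trimmomatic 0.36), aligned to GRCh38 with STAR and counted with featureCounts (Subread 1.5.1). The annotation release and the strand setting are not given in the sources used here. The authors deposited raw read counts per gene without normalization, the exonic length of each gene as the counting tool's length score, and RPKM values that equal the count over length and column total to within 3.08e-06%. Counts of overlapping genes moved together in these files, so values of overlapping genes are uncertain.

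The counts were TMM-normalized (factors 0.983 to 1.018), filtered with filterByExpr (21630 of 36359 genes) and tested with edgeR 4.0.16 (quasi-likelihood, R 4.3.3, condition only). The Benjamini-Hochberg threshold was 0.05. The script was tested on simulated data. The common biological coefficient of variation was 0.0856, and libraries of a group differed beyond sampling noise (chi-square per degree of freedom 14.6 in siNC and 10.1 in siPRR11). Alternatives were RLE, the exact test of edgeR, DESeq2 1.42.0, testing without a filter, a minimum of 10 counts in all libraries, a replicate block, limma 3.58.1 on log2(RPKM + 1) or log2(RPKM + 0.1), and leaving out each library, where a lone library is assumed to vary like the other group. The 33 genes, the 5 groups, the 111 genes of neighbouring lists (109 matched, *SPRING1* under an older symbol) and the marker lists were chosen with earlier results of these data known. Of these lists, 2 genes are not reported here. Named neighbours passed the threshold and changed by 0.5 or more on the log2 scale, up to 4 a list.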

Additional observations from a re-analysis of the deposited data

How the results depend on the processing

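Of the 6 called genes, FDPS passed under every alternative, RLE, the exact test, both other filters and the replicate block kept all 6, and DESeq2 kept 5 (not INSIG1). The counts of genes higher and lower (3 and 3) became 1 and 0 under both limma fits, 9 and 6 with the replicate block, 4 and 5 with the exact test, 4 and 6 with no filter and 8 and 6 at the unadjusted threshold. Leaving out each library gave 1 to 6 higher and 1 to 6 lower. Of all genes called, 61.5% were higher with limma on log2(RPKM + 1), against 45.4%. Same-numbered libraries deviated together with r = 0.165 across genes (genes are not replicates). With only 2 numbers this does not establish pairing. Of all genes, 6988 were called with the block, against 3622.

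Mevalonate enzymes called (1) became 3 with no filter, 5 with the block, 4 unadjusted and 1 to 2 without single libraries. Sterol enzymes called (1) became 2 with DESeq2, 3 with the exact test or no filter, 0 with limma, 4 with the block or unadjusted and 0 to 3 without single libraries. SREBP system genes called (4) became 0 with limma and 1 to 3 without single libraries. Lipogenic enzymes called (0) became 1 with DESeq2, the exact test, at least 10 counts, the block or unadjusted, and 0 to 1 without single libraries. LXR readouts called (0) became 1 with the block or unadjusted, and 0 to 1 without single libraries. Calls over all genes moved as well. Of 21630 genes, 3622 were called in the main test, 3537 with DESeq2 and 4209 with the exact test. With limma on log2(RPKM + 1) and log2(RPKM + 0.1) they were 1775 and 1878, with the block 6988 and unadjusted 6553. With no filter 4460 of 34506 were called, and with at least 10 counts 3779 of 19664. The groups are too small for these shifts to be read as particular to them. The causes were not tested.

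None of the 6 called genes changed sign in these settings, while genes near 0 did. On leaving out libraries the log2 fold changes ran from -0.223 to 0.277 (HMGCS1), -0.018 to 0.09 (PMVK), -0.333 to 0.217 (TM7SF2), -0.141 to 0.135 (NSDHL), -0.191 to 0.121 (SC5D), -0.108 to 0.103 (SCAP), -0.036 to 0.183 (FASN), -0.098 to 0.074 (ELOVL6), -0.136 to 0.057 (SCD), -0.208 to 0.044 (FADS1), -0.366 to 0.254 (LPIN1) and -0.107 to 0.043 (MYLIP). With limma on log2(RPKM + 1) and log2(RPKM + 0.1), NSDHL turned to 0.042 and 0.044, SC5D to 0.008 and 0.012, ELOVL6 to 0.024 and 0.035, SCD to 0.007 and 0.007 and MYLIP to 0.01 and 0.016. TM7SF2 turned to 0.001 with a pseudocount of 1, and NSDHL to 0.002 with at least 10 counts. Over all genes the median log2 fold change was 0.021 with limma on log2(RPKM + 1) and 0.045 on log2(RPKM + 0.1), against 0.002 in the main test. RPKM was scaled by the column total, without TMM. With 2 libraries a group, small changes can be missed.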
